A study of Mus musculus with 2 samples.

Results

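Dendritic cells of the fatty mouse liver were examined as 74 cell barcodes out of 50078 in 2 single-cell RNA libraries. A barcode was a member when it held at least 500 unique molecular identifiers (UMIs, each standing for 1 captured RNA molecule), had at most 50% of them in mitochondrial genes, and had at least 1 UMI in 2 or more of 9 genes, which were Flt3, Zbtb46, Xcr1, Clec9a, Cd209a, Siglech, Ccr7, Ccr9 and Itgax. It also needed a UMI in H2-Aa, H2-Ab1 or Siglech, fewer than 2 of 4 macrophage genes and fewer than 2 of 9 lymphoid genes. The first 2 limits were passed by 29620 barcodes of the wild-type (WT) library and 18260 of the knockout library, and 17 and 57 of these were members. Each library was made from the pooled livers of 3 mice, the WT animals being littermates of mice lacking miR-33 in hepatocytes (HKO, by a Cre recombinase driven from the albumin promoter, which is active in hepatocytes and not directed at dendritic cells). Both groups were fed CD-HFD, a diet rich in fat and without choline, for 6 months from 8 weeks of age, a model of steatohepatitis that leads to liver tumours, so no library stands for a liver on a normal diet. Hepatocytes and sorted live non-parenchymal cells were mixed in equal parts before capture. With 1 library per genotype there was no replicate and no test was made. The 95% intervals below (Poisson for levels, Clopper-Pearson for shares, exact conditional for ratios) cover counting error only.

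Dendritic cells take up antigen, carry it to T cells and present it on major histocompatibility complex (MHC) class II molecules. Conventional dendritic cells fall into cDC1, which depend on the transcription factors Irf8 and Batf3, take up dead cells through the receptor Clec9a and present their antigens to CD8 T cells, and cDC2, which are closer to monocytes in their genes and present mainly to CD4 T cells. Plasmacytoid dendritic cells depend on Tcf4, sense nucleic acids through endosomal Toll-like receptors and make type I interferon, while dendritic cells of any kind that mature and leave for lymph nodes switch on the chemokine receptor Ccr7.

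The members were chosen by the UMIs of the selection genes, whose values are therefore given as a description. Flt3, the receptor for the growth factor that drives dendritic cell development (chr5:147330741-147400489, minus strand), had a UMI in 47 of the 74 members. Clec9a (chr6:129408862-129424763, plus strand) had one in 34, Xcr1, the receptor through which cDC1 meet CD8 T cells (chr9:123852315-123862029, minus strand), in 17, and Siglech, a sialic acid binding lectin of plasmacytoid cells (chr7:55768178-55778925, plus strand), in 20. These positions are those of the whole genes on GRCm38 with GENCODE M21, and 3′ reads count mainly their last exons. Just inside the threshold, 7 WT and 21 HKO members had exactly 2 of the 9 genes. Just outside it, 78 WT and 61 HKO barcodes met every other condition with 1 of the 9.

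Each member was placed by selection genes alone. The plasmacytoid gate (Siglech without Xcr1, Clec9a or Cd209a) held 0 WT and 9 HKO barcodes, the cDC1 gate (Xcr1 or Clec9a without Siglech or Cd209a) held 8 and 19, and the cDC2 gate (Cd209a alone among these) held 3 and 8. The Ccr7 gate (Ccr7 and none of those genes) held 1 and 3 barcodes, more than 1 gate fitted 2 and 11, and 3 and 7 had no gate gene. Of the 13 barcodes in more than 1 gate, 11 carried Siglech, and of all 20 Siglech members 9 also carried Clec9a, 4 Cd209a and 0 Xcr1. Because the gates so defined split them, the 20 Siglech members were also described together, a grouping chosen after seeing the data. Ccr9, a homing receptor of plasmacytoid cells, had a UMI in 17 of these 20 and in 6 of the other 54.

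**Figure D1:**
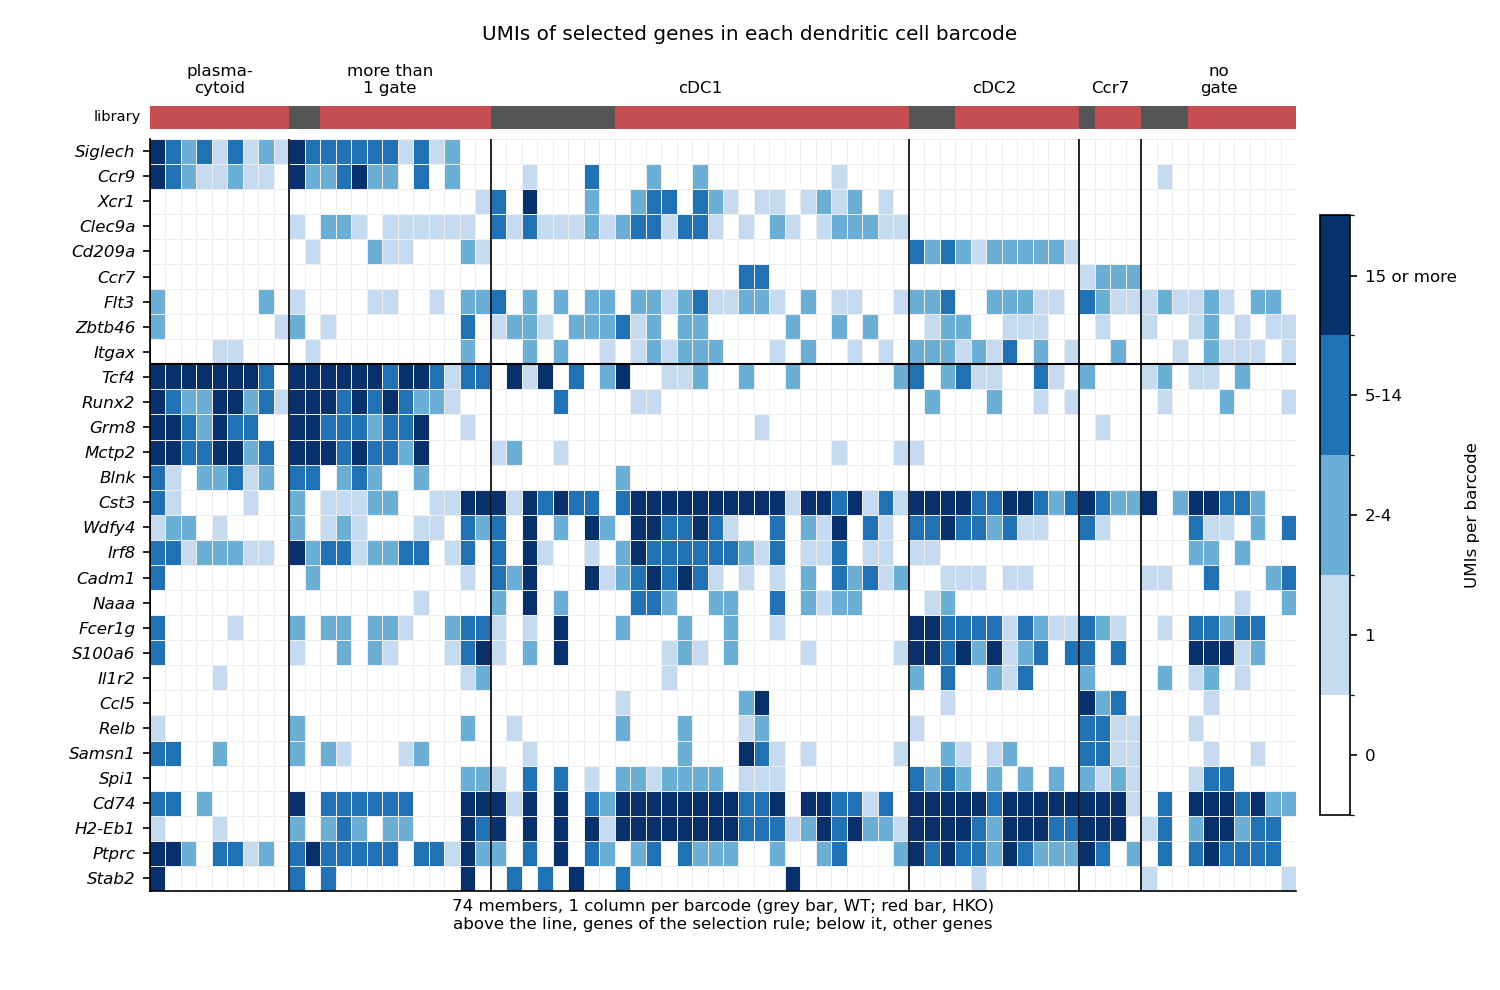
UMIs of 30 genes (rows) in each of the 74 members (columns, ordered by gate, grey bar WT and red bar HKO). Genes above the horizontal line chose the members; below it, Tcf4, Runx2, Grm8 and Mctp2 are dense in the 9 plasmacytoid gate and 11 other Siglech barcodes, Cst3 in the cDC1 and cDC2 gates, and Cd74 in most barcodes outside the plasmacytoid gate.

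The label was checked against genes of other liver cells, and part of it did not hold for every member. In 11 members (5 WT and 6 HKO) UMIs were found in at least 3 of 12 endothelial markers, and 10 of these carried Zbtb46, 8 Clec9a and 4 Flt3, 5 had no Ptprc (the pan-leukocyte antigen CD45), and 4 had at most 2 UMIs of Cd74. The endothelial gate itself, which used none of the selection genes, held Zbtb46 in 55 of its 192 barcodes in WT and in 88 of its 231 in HKO (32.6 and 115 CPM, UMIs scaled to a total of 1000000) and Clec9a in 18 and 32, while Flt3 was at 0 UMIs in both. Zbtb46 and Clec9a therefore did not mark dendritic cells alone in these libraries, and the values most affected are given with and without the members that had 3 or more endothelial markers. At least 2 markers of T and natural killer (NK) cells were found in 3 of the 74 members, of B or plasma cells in 5, of macrophages in 5, of neutrophils in 4, of stellate cells in 7, of cholangiocytes in 4, and of basophils or mast cells in 0; macrophage and lymphoid genes were low by the selection itself. At least 2 of 14 monocyte markers were found in 53 members, 17 of 17 in WT and 36 of 57 in HKO. HKO members were shallower, and the part of depth and of free RNA in this number was not tested.

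The libraries differed in depth and in free RNA, the RNA released by broken cells that enters every droplet. Members held a median of 11129 UMIs in WT (range 3066 to 40283) and 3793 in HKO (1219 to 28558), 248544 and 299849 UMIs in all. A list of 25 hepatocyte genes took a median of 5.53% of a member's UMIs in WT and 3.31% in HKO, against 17.6% and 15.8% in barcodes at the depth of free RNA (22712 and 8130 barcodes near the commonest depth with no marker of any gate). Scaled by that list, free RNA could account for up to 56.8% of the WT members' UMIs and 17.6% of the HKO members'. This scaling counts every UMI of the list as free RNA, also any from a hepatocyte caught in the same droplet. In 3 WT members and 1 HKO member the hepatocyte share was at or above that of free RNA, and these 3 WT barcodes held 31.5% of all WT member UMIs. Without these 3 WT and 1 HKO barcodes the estimates were 27.7% in WT and 17.2% in HKO. Of the 3 WT barcodes, 1 held 40283 UMIs and 1 held 34892, where the commonest depth of the WT library was 2579. Whether such barcodes also held a hepatocyte was not tested. How many barcode sequences the libraries share was not analysed here.

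**Figure D2:**
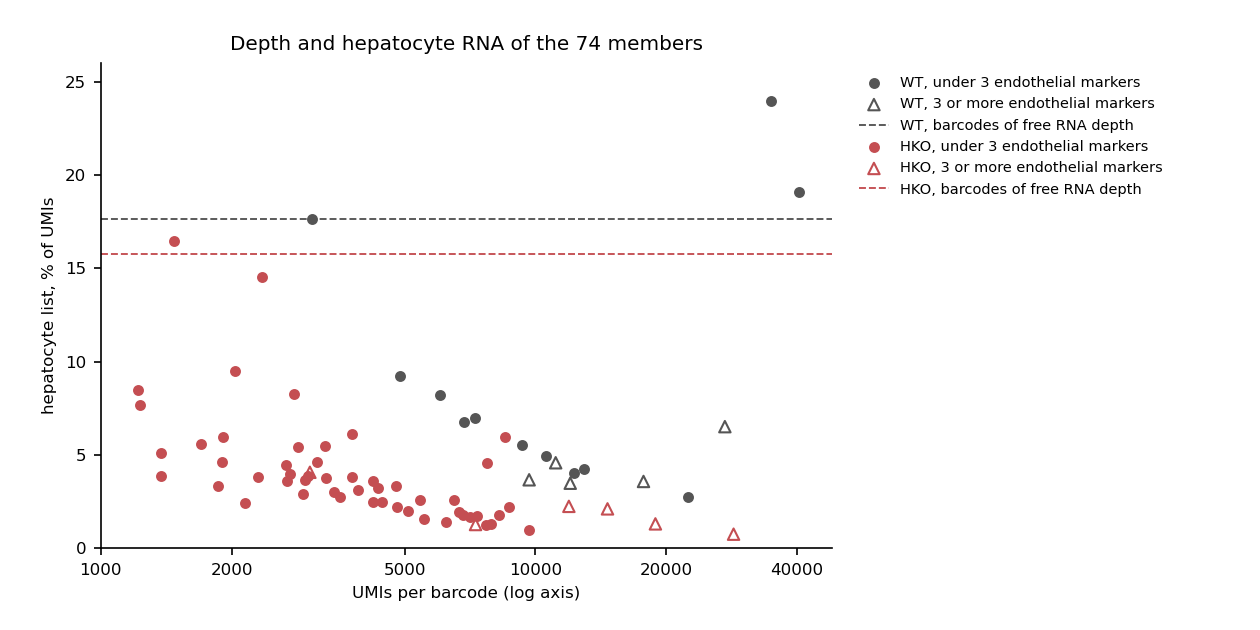
UMIs per barcode (horizontal, log axis) and share of UMIs in 25 hepatocyte genes (vertical, percent) for the 17 WT (grey) and 57 HKO (red) members; triangles have 3 or more endothelial markers and dashed lines give the share in barcodes of free RNA depth. WT members lie to the right of most HKO members, and 3 WT barcodes and 1 HKO barcode reach their library's line.

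Summed over the barcodes with Siglech, plasmacytoid markers were high in both libraries. This did not hold for each of the 20: 1 HKO barcode of the plasmacytoid gate, the HKO member at the hepatocyte share of free RNA, had 1472 UMIs, with 1 of Siglech, 1 of Runx2 and 0 of Tcf4, Grm8, Mctp2, Blnk, Lair1 and Ccr9. A list of 23 plasmacytoid markers outside the selection summed to 16446 CPM in the 2 WT barcodes (14629 to 18427) and 12866 CPM in the 18 HKO barcodes (12135 to 13630). In members without Siglech it summed to 1167 CPM in WT and 1419 in HKO, in barcodes of a B cell gate to 1691 and 2093, and in free RNA to 736.8 and 577.0. The 9 barcodes of the plasmacytoid gate, all HKO, stood at 11193 CPM (10292 to 12151). Of these, 1 barcode held 28558 UMIs and carried all 12 endothelial markers, and the other 8 stood at 15845 CPM. Of the 23 genes, 14 had at least 30 UMIs over the members, and 12 of these were at least 2-fold higher in the Siglech barcodes than in the other 54 members, where 14.6% of 3565 genes were; the median log2 ratio was 4.25 for the list and -0.02 for all genes. Without the members that had 3 or more endothelial markers, the list summed to 20871 CPM in the 1 WT and 16986 CPM in the 16 HKO Siglech barcodes left, and 8 of 10 genes were at least 2-fold higher, where 17% of all genes were. In the plasmacytoid gate alone, set against members that include the other Siglech barcodes, 7 of the 14 were at least 2-fold higher, where 15.2% of all genes were.

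Tcf4, the transcription factor on which plasmacytoid identity depends, had 107 UMIs in 2 of 2 WT Siglech barcodes (5925 CPM) and 426 UMIs in 17 of 18 in HKO (4745 CPM), against 282.0 and 304.6 CPM in members without Siglech. Over both libraries this was 16.9-fold (13.9 to 20.6). Runx2, a factor needed for plasmacytoid cells to leave the bone marrow, had UMIs in 20 of 20 Siglech barcodes and in 10 of the 54 others (2291 and 45.4 CPM, 50.5-fold, 32.0 to 84.1). Both genes were thus higher in the Siglech barcodes of each library, and Runx2 was present in every one. Without the members that had 3 or more endothelial markers, Tcf4 was 43.8-fold higher and Runx2 53-fold (33.3 to 88.8). Lair1, an inhibitory collagen receptor, was 43.1-fold higher (95 UMIs in 17 barcodes against 9 in 9), and Blnk, the B cell linker protein, 116-fold higher (57 UMIs in 13 barcodes against 2 in 1). The endosomal receptor Tlr7 had 17 UMIs in 7 of the 20 barcodes and 0 in the others, which against a floor of 3 UMIs over the group is at least 23-fold higher. Tlr9, the DNA sensor of these cells, had 0 UMIs in all 74 members, which against the same floor allows up to 27.8 CPM in the 20 Siglech barcodes. Bst2, the surface antigen used to stain plasmacytoid cells, differed less, with 621 CPM against 191 (3.26-fold, 2.33 to 4.55), and stood at 256 CPM in WT and 176 CPM in HKO free RNA. Mpeg1 (1.53-fold, 0.99 to 2.31) and Upb1 (1.32-fold, 0.60 to 2.67) were the 2 listed genes below 2-fold.

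Outside the lists, several of the genes that led the Siglech barcodes code for receptors and signalling proteins. Grm8, a metabotropic glutamate receptor, had 241 UMIs in 16 of the 20 barcodes and 3 UMIs in 3 of the other 54, with 71 UMIs in 2 of 2 WT and 170 UMIs in 14 of 18 HKO Siglech barcodes. Mctp2, a membrane protein with calcium-binding domains, had 251 UMIs in 17 barcodes against 8, a 128-fold difference (227-fold without the members with 3 or more endothelial markers), and Prkca, protein kinase C alpha, had 137 UMIs in 18 barcodes against 10 (56.0-fold). Tmem163 had 54 UMIs in 15 barcodes and 0 in the others, at least 73.5-fold higher.

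**Figure D3:**
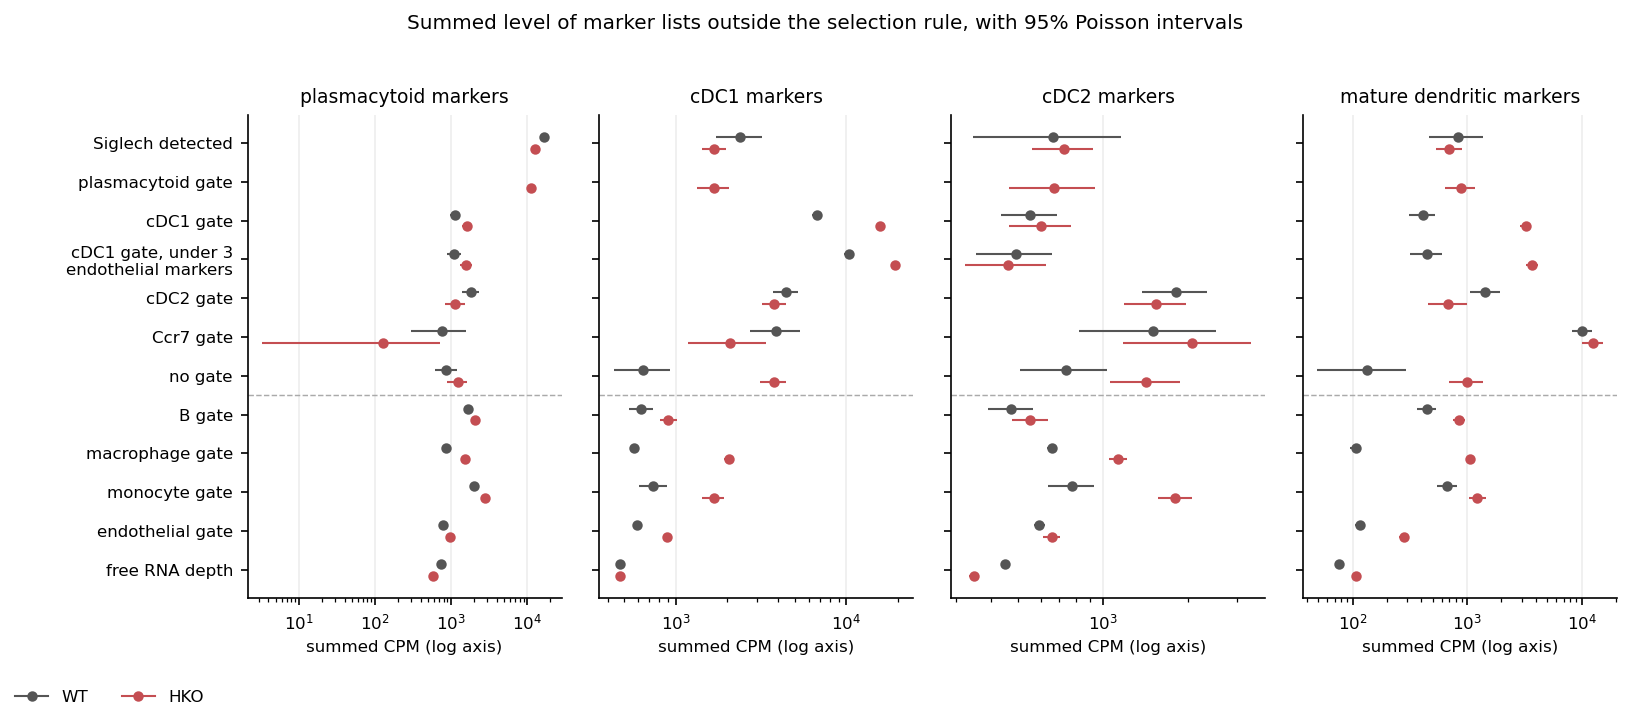
Summed CPM (log axis, dot) with 95% Poisson interval (line) of 4 marker lists in each gate of the dendritic cells (above the dashed line) and in gates of other cells and free RNA (below it), WT grey and HKO red. Plasmacytoid markers are highest in the Siglech barcodes, cDC1 markers in the cDC1 gate and mature markers in the Ccr7 gate of both libraries, while for cDC2 markers the Ccr7 gate and the HKO monocyte gate reach the range of the cDC2 gate.

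Transcription factors divided Siglech barcodes from the conventional members. Bcl11a, which acts with Tcf4 in plasmacytoid development, had UMIs in 18 of 20 Siglech barcodes and 17 of 54 others (872 and 111 CPM, 7.84-fold, 5.49 to 11.3), and Zeb2 was 3.02-fold higher (2.44 to 3.73). Id2, an inhibitor of Tcf4 and a factor of conventional cells, had UMIs in 4 of 20 and 40 of 54 (250 and 583 CPM, 0.43-fold, 0.28 to 0.64, and 0.05-fold, 0.01 to 0.20, without the members with 3 or more endothelial markers). Spi1, the myeloid factor PU.1, had 0 UMIs in the 20 Siglech barcodes and 91 UMIs in 30 of the 54 others, and Batf3 had 0 against 30 UMIs in 14. Irf8 was present on both sides, with UMIs in 18 of 20 Siglech barcodes (872 CPM) and in 26 of the others (372 CPM). Over the list of 24 dendritic transcription factors, 19 had at least 30 UMIs, of which the Siglech barcodes had 6 at 2-fold or more above the other members and 10 at 0.5-fold or less, where 14.6% and 16.8% of all genes were.

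The cDC1 gate carried the genes of cDC1 beyond the 2 receptors that defined it. A list of 18 cDC1 markers summed to 6700 CPM in 8 WT barcodes (6284 to 7137) and 15787 CPM in 19 HKO barcodes (15036 to 16566). Without the members that had 3 or more endothelial markers, the 5 WT barcodes left stood at 10370 CPM and the 17 HKO barcodes at 19361 CPM, and WT stood at 15506 CPM when the 1 barcode at the hepatocyte share of free RNA was left out too. The cDC2 gate stood at 4429 and 3755 CPM, the Siglech barcodes at 2381 and 1682, a macrophage gate at 566.9 and 2042, and free RNA at 470.0 and 472.9. Of 14 listed genes with at least 30 UMIs, 11 were at least 2-fold higher in the cDC1 gate than in the other 47 members, where 6.79% of all genes were, and the median log2 ratio was 2.11 against -0.09 over all genes.

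Cst3, the protease inhibitor cystatin C, was the most abundant of the list, with 573 UMIs in 7 of 8 WT barcodes (3983 CPM) and 1042 UMIs in 19 of 19 HKO barcodes (9928 CPM); over both, it was 5.28-fold higher than in the other members (4.72 to 5.93). A single WT barcode, which also carried Xcr1, held 396 of the WT UMIs of Cst3. Naaa, a lysosomal amidase, had 72 UMIs in 13 of 27 barcodes against 8 UMIs in 5 of 47 (10.8-fold, 5.22 to 26.1), at 264 CPM in WT and 324 CPM in HKO. In WT, 31 of its 38 UMIs in the gate lay in that same barcode. Ppt1, another lysosomal enzyme, had UMIs in 22 of 27 against 16 of 47 (7.33-fold, 4.65 to 12.1). Wdfy4, which cDC1 need to present antigen of dead cells, was 2.06-fold higher (1.64 to 2.60), at 500 CPM in WT and 1305 CPM in HKO. These 4 genes were seen in the gate in both libraries. Without the members that had 3 or more endothelial markers, the WT levels of the gate were higher, at 6359 CPM for Cst3, 433 for Naaa, 604 for Ppt1 and 820 for Wdfy4, and the folds over the other members so kept were 6.78, 18.2, 11.7 and 3.18. Of the 87749 UMIs in these 5 WT barcodes, 40283 lay in 1 barcode at the hepatocyte share of free RNA, and without it the WT levels were 9375 CPM for Cst3, 737 for Naaa, 843 for Ppt1 and 1348 for Wdfy4. Itgae, the integrin CD103, had 25 UMIs in 8 barcodes against 1 UMI (30.1-fold, 4.93 to 1236), and Tlr3, the receptor for double-stranded RNA, was 6.02-fold higher (2.26 to 20.1). The factors Irf8 (1.62-fold, 1.26 to 2.09) and Batf3 (2.41-fold, 1.08 to 5.76) differed less, Irf8 being shared with the Siglech barcodes, and stood at 2.96-fold and 3.15-fold without the members with 3 or more endothelial markers, where Tlr3 stood at 14.5-fold. Ly75, the antigen uptake receptor DEC-205, had 27 UMIs in 10 of 19 HKO barcodes of the gate and 0 in 8 WT barcodes, and Il12b, a subunit of interleukin-12, had 11 UMIs in 3 barcodes of the gate and 0 in the other members. Of the genes with the highest ratios, Adam8 (27.7-fold) and Ly75 (16.2-fold) stood at 26.5-fold and 17.0-fold without the members with 3 or more endothelial markers. Sema6d (36.1-fold), the matrix proteoglycan gene Bgn (20.1-fold) and Tgfbi (17.5-fold) did not keep such values. Of 30 UMIs of Sema6d in the gate 4 were left, of 50 of Bgn 2 were left, and Tgfbi stood at 3.78-fold. Of the UMIs of Bgn, 22 lay in 1 WT barcode and 20 in 1 HKO barcode, each with all 12 endothelial and all 12 stellate markers.

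In the cDC2 gate, the list of 19 cDC2 markers summed to 1815 CPM in 3 WT barcodes (1381 to 2341) and 1546 CPM in 8 HKO barcodes (1188 to 1978), against 549.1 and 600.2 in the cDC1 gate, 773.7 and 1811 in a monocyte gate, and 449.5 and 346.7 in free RNA. Of the 6 listed genes with at least 30 UMIs, 2 were at least 2-fold higher in the gate, where 7.18% of all genes were, and in HKO alone 1 of 6 was, where 8.33% were. These were Il1r2, the decoy receptor of interleukin-1, with 26 UMIs in 5 of 11 barcodes against 17 in 9 of 63 (9.92-fold, 5.18 to 19.5), and Klf4, a factor needed by part of the cDC2 (3.08-fold). Sirpa, the surface protein used to sort cDC2, stood at 81.9 CPM in the gate and at 112 CPM in the other members (0.73-fold, 0.26 to 1.71). Irf4, the factor of cDC2, had 5 UMIs in the gate and 5 outside it. Mgl2, Ccl17 and Cd209d had 0 UMIs in all 74 members, which against a floor of 3 UMIs allows up to 41 CPM for each in the 11 barcodes of the gate.

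Among genes outside the cDC2 list, Fcer1g, the signalling chain of Fc receptors, had UMIs in 11 of 11 cDC2 gate barcodes and 27 of 63 others (996 and 242 CPM, 4.12-fold, 3.03 to 5.57). S100a6, a calcium-binding protein, had 113 UMIs in 10 of 11 barcodes (4.50-fold, 3.51 to 5.75), S100a4 was 3.99-fold higher (3.21 to 4.95), and Wfdc17, a secreted inhibitor of macrophage activation, was 7.12-fold higher (4.56 to 11.1). Il1b, the inflammatory cytokine, had 30 UMIs in 3 of 11 barcodes and 21 in 10 of 63. Lyz2, the lysozyme of macrophages and monocytes, had 3 UMIs in 2 of the 11 barcodes, and Mrc1, the macrophage mannose receptor, had 0 against 106 UMIs in 13 of 63. Without the members that had 3 or more endothelial markers, Fcer1g was 3.84-fold and Il1r2 5.86-fold higher, and 3 of the 6 listed cDC2 genes were at least 2-fold higher, where 9.01% of all genes were. The list of 14 monocyte markers summed to 2553 CPM in WT and 3460 CPM in HKO in the cDC2 gate, against 1230 and 828.9 in the cDC1 gate and 2559 and 12270 in the monocyte gate. In free RNA the list took 0.0909% of UMIs in WT and 0.0906% in HKO, a level that the HKO cDC1 gate did not exceed.

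The Ccr7 gate held 4 barcodes, and a list of 20 genes of mature dendritic cells was highest there. It summed to 10115 CPM in the 1 WT barcode (8174 to 12378) and 12550 CPM in the 3 HKO barcodes (10177 to 15310), against 410.1 and 3249 in the cDC1 gate (3696 in HKO below 3 endothelial markers, and 1078 without the 2 barcodes that carried Ccr7) and 1446 and 687.1 in the cDC2 gate. All 8 listed genes with at least 30 UMIs were at least 2-fold higher in the gate, where 28.1% of all genes were. Relb, a factor of the non-canonical NF-κB pathway, had UMIs in 4 of 4 barcodes and 10 of 70 others (1116 and 35.8 CPM, 31.2-fold, 15.6 to 62.3). Samsn1, a signalling adaptor, was 7.58-fold higher (4.18 to 13), Tbc1d4, a Rab regulator, 3.97-fold (2.10 to 6.95), and Cd83, a maturation antigen that stabilises class II on the surface, 6.24-fold (3.48 to 10.6). Relb, Samsn1 and Tbc1d4 were thus found in each of the 4 barcodes. Ccl5, a chemokine for T cells, had 48 UMIs in the WT barcode and 13 in 2 of 3 HKO barcodes. Fscn1, the actin bundler of mature dendritic cells, had 4 UMIs in 1 barcode, and Irf8 had 0 UMIs in the gate. Of 19 dendritic transcription factors, 4 were at least 2-fold higher in the gate and 7 at least 2-fold lower, where 8.89% of all genes were lower. Ccr7 was also present in 2 HKO barcodes of the cDC1 gate, with 6 and 12 UMIs. The one with 12 also held 92 UMIs of Ccl5, out of 95 in the 27 barcodes of the cDC1 gate, and the one with 6 held 16 of Samsn1 and 20 of Tbc1d4.

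Class II presentation also separated the gates. The list of 13 genes, which leaves out the H2-Aa and H2-Ab1 of the selection, summed to 19931 CPM in WT and 14798 CPM in HKO in the cDC2 gate, to 19800 and 16820 in the Ccr7 gate, and to 6124 and 11386 in the cDC1 gate (9812 and 13617 without members with 3 or more endothelial markers, and 15885 in WT without the barcode rich in hepatocyte RNA). In the Siglech barcodes it summed to 2160 and 1760 CPM, below a B cell gate in HKO (6555 CPM) and with an interval overlapping it in WT (2787 CPM, 2587 to 2999, against 1536 to 2952). The 1 WT Siglech barcode below 3 endothelial markers had 5 UMIs of the list (828 CPM, 269 to 1933), and the 16 HKO barcodes stood at 2212 CPM (1816 to 2668). Free RNA stood at 105.5 and 135.0. Part of the distance between Siglech and other barcodes is set by the selection, since a barcode without class II entered only through Siglech; 9 of the 20 had no UMI of H2-Aa or H2-Ab1. Among the 11 that did, Cd74 still stood at 1219 CPM, against 5266 CPM in the 54 members without Siglech.

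**Figure D4:**
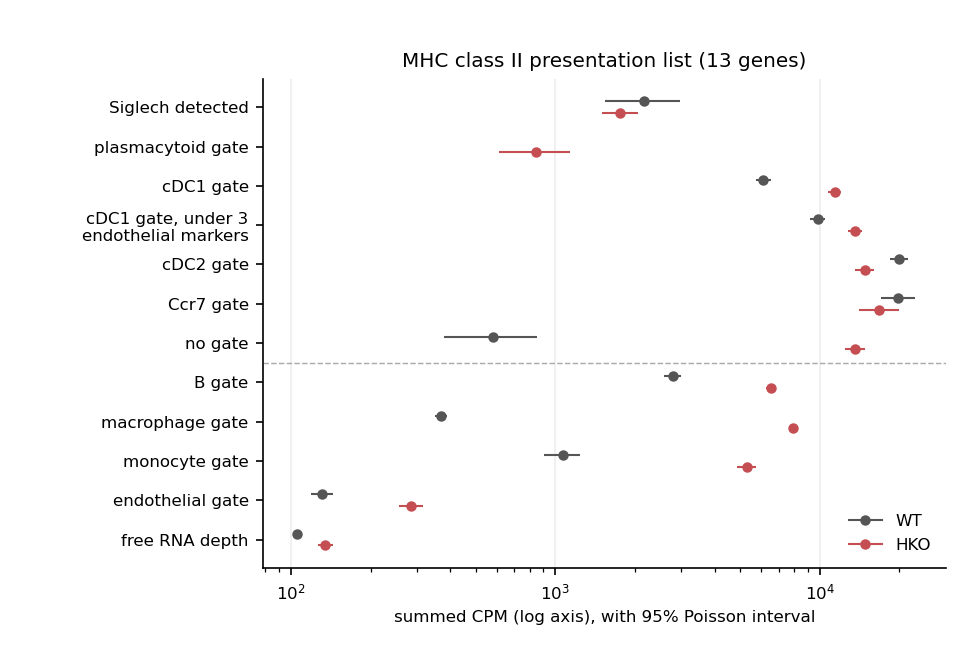
Summed CPM (log axis) of 13 class II presentation genes, with 95% Poisson intervals, in gates of the dendritic cells (above the dashed line) and of other cells (below it), WT grey and HKO red. The cDC2 and Ccr7 gates stand at 14798 CPM or more in both libraries, the Siglech barcodes at 2160 CPM or less, and the 3 WT barcodes with no gate at 580.2 CPM.

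Cd74, the invariant chain that guides class II molecules to the endosome, had UMIs in 11 of 11 cDC2 gate barcodes (11811 CPM in WT and 7853 in HKO, together 2.66-fold above the other members, 2.43 to 2.90). Ciita, the master regulator of class II transcription, was 2.31-fold higher in that gate (1.42 to 3.66) and had 4 UMIs in 20 Siglech barcodes against 95 UMIs in 33 of 54 others (0.17-fold, 0.05 to 0.46). Ifi30, which reduces disulphide bonds of antigen, was 0.13-fold in the Siglech barcodes (0.05 to 0.29). Across the list, 7 of the 11 genes with at least 30 UMIs were at least 2-fold higher in the cDC2 gate, where 7.18% of all genes were, and 7 of 11 were at least 2-fold lower in the Siglech barcodes, where 16.8% were. Of the costimulation list, 1 of 5 genes with at least 30 UMIs was at least 2-fold higher in the cDC2 gate. All 5 were at least 2-fold lower in the Siglech barcodes, against that same 16.8% (4 of 5 without the members with 3 or more endothelial markers, against 26.5%). There Cd83 had 0 UMIs against 102 in 30 of 54, Cd86 had 4 UMIs in 1 barcode against 133 in 29, and Havcr2 had 0 against 68 in 25. The plasmacytoid gate was shallower than the cDC1 gate (a median of 2688 UMIs against 6510), and its part in the number of barcodes with a UMI was not tested.

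The 10 members with no gate gene were unlike between libraries. The 7 HKO barcodes summed to 13615 CPM of the class II list (12422 to 14890) and 7020 CPM of the monocyte list, while the 3 WT barcodes summed to 580.2 CPM (379.0 to 850.2) and 870.4 CPM. Of these 3 WT barcodes, 2 were among those with a hepatocyte share at the level of free RNA. Their monocyte list did not exceed its level in WT free RNA (0.0909% of UMIs).

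Members made up 0.0574% of passing WT barcodes (0.0334 to 0.0919, 17 of 29620) and 0.312% of passing HKO barcodes (0.237 to 0.404, 57 of 18260), 5.44-fold higher in HKO (3.12 to 9.97). The passing barcodes include 22712 in WT and 8130 in HKO at the depth of free RNA. These shares thus depend on how many such barcodes each library kept. Over barcodes that entered any non-hepatocyte gate, which leaves those out, the shares were 17 of 827 and 57 of 1388. This was 2.00-fold higher in HKO (1.15 to 3.66). The difference was thus smaller against other non-parenchymal cells, and neither ratio says how livers of a genotype vary. Without members that had 3 or more endothelial markers, 12 and 51 barcodes remained (6.89-fold over passing barcodes), and without those at the hepatocyte share of free RNA 14 and 56 (6.49-fold). Without members that carried at least 2 markers of T and NK cells, B or plasma cells, endothelial cells, stellate cells or neutrophils, 6 and 45 barcodes remained (12.2-fold, 5.17 to 34.9). HKO barcodes were shallower. Among barcodes with at least 1000 UMIs the members were the same and the ratio was 9.86. That limit lies above the commonest depth of the HKO library (797) and below that of WT (2579). It left 9941 of 18260 passing barcodes in HKO and 29235 of 29620 in WT, so the ratio moved through these denominators alone. Siglech was present in 2 of 17 WT members (11.8%, 1.46 to 36.4) and 18 of 57 HKO members (31.6%, 19.9 to 45.2), and the cDC1 gate held 47.1% (23 to 72.2) and 33.3% (21.4 to 47.1). Xcr1 was present in 3 of 17 WT members (17.6%, 3.80 to 43.4) and 14 of 57 HKO members (24.6%, 14.1 to 37.8). The intervals of each of these shares overlap between the libraries.

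Within the members, summed UMIs of 3575 genes with at least 30 UMIs were at least 2-fold higher in HKO for 13.6% and at least 2-fold lower for 14.1%, and the median log2 ratio over all of them was 0.21. Weighting barcodes equally gave 310 higher and 524 lower in place of 486 and 504, with a median of -0.03. Subtracting the free RNA estimate gave 401 and 615, with a median of -0.12. Subtraction also lowered the totals, by 56.8% in WT and 17.6% in HKO. A gene with little free RNA therefore fell in its HKO to WT ratio. Leaving out the members at the hepatocyte share of free RNA gave 232 and 278 of 3159 genes, with a median of 0.05. Leaving out the highest barcode of each library gave 695 and 427, with a median of 0.31. All 25 hepatocyte genes were lower in HKO members, with a median log2 ratio of -1.88 that was -0.92 without the members at the hepatocyte share of free RNA. The part of free RNA in any one gene was not tested. List values below are given from summed UMIs, after subtraction and without the members at the hepatocyte share of free RNA, in that order.

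Plasmacytoid markers had 12 of 14 genes higher in HKO, 9 of them at least 2-fold, where 13.6% of all genes were, and their median log2 ratio was 1.21 from summed UMIs, 0.33 after subtraction and 0.71 without the members rich in hepatocyte RNA. Tcf4 was 2.36-fold higher in HKO over all members, of which 2 in WT and 18 in HKO carried Siglech, and stood at 5925 CPM in WT and 4745 CPM in HKO within the Siglech barcodes. Without members that carried at least 2 markers of the other cell types named above, 2 of 7 listed genes were at least 2-fold higher, where 12.6% of all genes were, and the median was 0.63 (range -0.57 to 1.87), and Tcf4 was 0.78-fold and Runx2 0.68-fold in HKO. Mature dendritic markers had medians of 1.04, 0.13 and 0.50, dendritic transcription factors 0.74, -0.03 and 0.32, and cDC1 markers 0.55, -0.27 and 0.25. The class II list had 11 of 11 genes higher in HKO, 3 of them at least 2-fold, where 13.6% of all genes were. Its median was 0.69, against 0.21 over all genes, and became -0.23 after subtraction and 0.19 without the members rich in hepatocyte RNA. Its most abundant genes show how the direction hangs on these steps. Cd74 was 1.20-fold in HKO from summed UMIs, 0.63-fold after subtraction and 0.87-fold without those members, and H2-Eb1 was 1.22-fold, 0.64-fold and 0.91-fold. Free RNA could give 4.2 of 991 UMIs of Cd74 in WT and 2.2 of 1432 in HKO. Subtraction thus moved the ratio of Cd74 almost wholly through the lowered totals. Ribosomal protein genes had medians of 0.60, 0.05 and 0.49. No direction for class II between the genotypes could be read from these data.

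**Figure D5:**
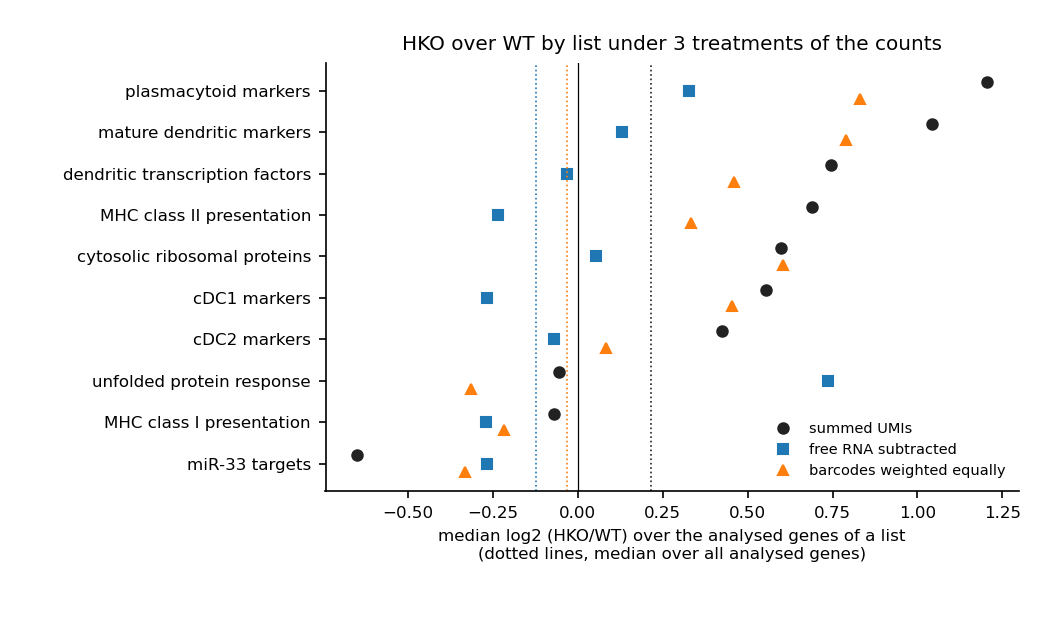
Median log2 ratio of HKO over WT (horizontal) over the analysed genes of 10 lists, from summed UMIs (black), after subtraction of the free RNA estimate (blue) and with barcodes weighted equally (orange), with the median over all analysed genes as dotted lines. Plasmacytoid markers stay above 0 in all 3 forms, while class II, cDC1, cDC2, unfolded protein response and dendritic transcription factor lists change side.

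Among single genes that held at least 2 times their free RNA estimate in the library where they were higher, Rgs10, a regulator of G protein signalling, had 6 UMIs in WT members and 61 in HKO members, 8.43-fold higher, 4.47-fold after subtraction and 5.80-fold without the members rich in hepatocyte RNA. Btk, the tyrosine kinase of B cells and myeloid cells, had 3 and 27 UMIs (7.46-fold, 3.90-fold after subtraction), and Rftn1, a lipid raft protein, 11 and 98 (7.39-fold, 3.92-fold after subtraction). The largest ratio was that of Smim3, with 1 and 29 UMIs (24.0-fold, 3.99 to 982), which was 4.2-fold after subtraction. Fabp5 had 6 and 56 UMIs (7.74-fold), of which 5 lay in 1 WT barcode and 38 in 1 HKO barcode of the Ccr7 gate, and was 14.3-fold higher without the highest barcode of each library. Ccl4 had 10 and 75 (6.22-fold), of which 35 lay in 1 barcode, and was 4.8-fold higher without the highest barcodes. All UMIs of Tmem163 (5 and 49) lay in Siglech barcodes. In the other direction, Klf12 had 41 UMIs in WT and 8 in HKO (0.16-fold, with 26 of the WT UMIs in 1 barcode, and 0.57-fold without members with 3 or more endothelial markers), Zbtb16 had 37 and 12 (0.27-fold), and Serpina1e had 116 and 12, of which 94 lay in 1 WT barcode.

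The deletion was directed at hepatocytes, so the dendritic cells themselves were not its target. miR-33 represses genes of cholesterol export and fatty acid oxidation, and these targets were looked at in the members. The mature mmu-miR-33-5p, shown because its seed pairs with such targets, lies within Srebf2 at chr15:82198127-82198147 on the plus strand (RefSeq, GRCm38.p6), with the seed (bases 2 to 8) in capitals.
mmu-miR-33-5p: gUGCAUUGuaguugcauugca

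Of 12 listed targets in the files, 8 had at least 30 UMIs over the members, of which HKO members had 3 at a higher and 5 at a lower level. Abcg1 and Ncoa3 were at least 2-fold higher, and Abca1, Crot and Hadhb at least 2-fold lower, where 13.6% and 14.1% of all genes were. The median log2 ratio was -0.65 from summed UMIs, -0.27 after subtraction and -0.23 without the members rich in hepatocyte RNA. Over all genes it was 0.21, -0.12 and 0.05. Abca1, the cholesterol exporter, had 37 UMIs in WT and 19 in HKO members (0.43-fold, 0.24-fold after subtraction), of which free RNA could give 20.6 and 10.1. Abcg1, its partner in myeloid cells, had 7 and 23 (2.72-fold higher in HKO, 1.48-fold after subtraction). The directions of the 2 exporters were thus opposite in both forms. Crot, which carries fatty acids out of the peroxisome, had 104 and 55 UMIs (0.44-fold), but free RNA alone could give 187 UMIs in WT and 50.3 in HKO, so that no level of Crot in dendritic cells could be read. Cpt1a, the gatekeeper of mitochondrial fatty acid oxidation, had 35 and 31 UMIs (0.73-fold, 1.01-fold after subtraction), of which free RNA could give 27.4 and 13.4. Ncoa3, a nuclear receptor coactivator, had 17 and 44 UMIs (2.15-fold, 1.22-fold after subtraction).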

How the data were processed

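Livers were perfused with collagenase, and hepatocytes were mixed with live-sorted non-parenchymal cells for droplet capture with 3′ single-cell RNA-seq. The authors deposited raw UMI counts per gene and barcode for both libraries (32285 genes, mm10, Cell Ranger 7.1.0 per the file headers, R 3.0 and Seurat 3 per the labels); how barcodes were kept for deposit is not given in the sources used here. The libraries held 130451427 (WT) and 52563185 (HKO) UMIs. From the counts, members, gates, levels in CPM, ratios and intervals were computed with Python 3.11.15, numpy 2.4.6, scipy 1.17.1 and pandas 2.3.3, and the code was tested on simulated counts. Members, gene lists and gates were chosen with earlier results of these data known. UMIs were summed over members, and ratios were listed for genes with at least 30 UMIs. No doublet caller was run; counts of other cell types' markers are given instead. The free RNA estimate scaled the profile of barcodes within 25% of the commonest depth, without any selection or gate gene, to each library's hepatocyte list.

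Named genes were the selection genes, listed genes with most UMIs or at least a 2-fold difference, the 10 highest and 10 lowest HKO to WT ratios among genes in at least 10 members at 2 times the free RNA estimate and keeping their direction without the highest barcode of each library, and for each gate the 10 genes with the highest ratio among those with at least 20 UMIs in at least 5 of its barcodes. Genes named besides these (S100a4, Il1b, Lyz2, Mrc1, Il12b and zero-count markers) were chosen after their values were seen. Alternatives were other limits on UMIs, mitochondrial share and selection genes, equal weighting, thinning to 1000 UMIs, free RNA subtraction, scaling, and leaving out barcodes with other cell types' markers. Those based on endothelial markers, Ptprc, all Siglech barcodes, Ccr7 within the cDC1 gate and the hepatocyte share were added after seeing the data.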

Additional observations from a re-analysis of the deposited data

How the results depend on the processing

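No paired analysis was possible because each genotype had 1 library, and no test was made. Limits of at least 1000 UMIs left the members unchanged, and thinning each barcode to 1000 UMIs gave the same expected values as equal weighting. The HKO to WT ratio of the members' share was 12.2 without members with 2 markers of other cell types and 2.00 over gated barcodes. With at least 3 selection genes the Ccr7 gate held 0% and the no-gate group 0% of WT members and the latter 2.78% of HKO members; the Ccr7 gate also held 0% of WT members without those with 2 other markers. In HKO alone 1 of 6 cDC2 markers was at least 2-fold higher in its gate, where 8.33% of all genes were. Genes at least 2-fold higher in HKO numbered 310 with equal weighting and with thinning, 305 (with 636 lower) scaled to a median ratio of 1, 1260 at a minimum of 10 UMIs, 174 without members with 2 other markers, 232 without members at the hepatocyte share of free RNA and 146 in the cDC1 gate below 3 endothelial markers. Genes lower numbered 1122, 139, 278 and 163 in the last 4 of these settings. After free RNA subtraction the median log2 ratio was -0.23 for class II and -0.033 for dendritic transcription factors, -0.27 for cDC1 markers, -0.07 for cDC2 markers, -0.30 for cytokines and 0.74 for the unfolded protein response, all of which turned sign, 0.13 for mature markers, 0.33 for plasmacytoid markers and 0.053 for ribosomal proteins. Without the highest barcode of each library it was 1.13 for cDC1 markers, 2.05 for plasmacytoid markers and 0.79 for ribosomal proteins, which were 0.38 with scaling, 0.51 without members with 3 endothelial markers and 0.49 without those at the hepatocyte share. In the cDC1 gate below 3 endothelial markers it was 0.94 for cDC1 markers (0.29 without the 1 WT barcode at the hepatocyte share), 3.67 for mature markers (4 genes, with 228 of 307 HKO UMIs of the list in 2 barcodes with Ccr7), 1.80 for costimulation, -1.01 for interferon-stimulated genes and 2.16 for the cell cycle; cDC1 markers were at 1.56 without members with 2 other markers. Immediate early genes were at -0.29 with equal weighting and with thinning, -0.22 without members with 2 other markers and -0.21 without members with 3 endothelial markers. Without members with 2 other markers the HKO to WT ratio turned to 0.78 for Tcf4, 0.68 for Runx2, 1.35 for Hadhb, 1.90 for Slc20a1 and 1.19 for Dtx3l. Genes that turned in the cDC1 gate below 3 endothelial markers included Runx2 (0.42), Slc20a1 (1.23), Ccr9 (0.48), Zeb2 (0.75), Ssbp2 (0.53) and Csf1r (0.35). This is not the full list. For Hadhb the ratio turned to 1.59 after subtraction, and for Gstp1 to 1.71 without members at the hepatocyte share. Subtraction lowered the totals too, more in WT than in HKO, which lowers the HKO to WT ratio of genes with little free RNA. Where no construction shows the cause, the cause was not tested. Depth limits every gate: with 4 to 27 barcodes a gene at 0 may be one not captured.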

Other observations

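Ribosomal protein genes varied between the gates and within the Siglech barcodes. The 50 genes summed to 99194 CPM in WT and 120715 CPM in HKO in the cDC2 gate and to 78508 and 120944 CPM in the cDC1 gate below 3 endothelial markers, against 33224 CPM in WT and 51921 CPM in HKO in all Siglech barcodes, where 7 of the 50 were at least 2-fold lower than in the other members and 16.8% of all genes were. Without the members that had 3 or more endothelial markers, the 17 Siglech barcodes left stood at 9110 CPM in WT and 45924 CPM in HKO, and 34 of 50 were at least 2-fold lower, where 26.5% of all genes were. The plasmacytoid gate stood at 33853 CPM (36 of 50 at least 2-fold lower, where 21.5% of all genes were), but 1 of its 9 barcodes held 28558 UMIs and carried all 12 endothelial markers. Without that barcode, and with no other member that had 3 or more of them, the gate stood at 10234 CPM and 50 of 50 were at least 2-fold lower, where 25.2% were. Of 14 immediate early genes, 6 were at least 2-fold higher in the plasmacytoid gate with that barcode (15.2% of all genes) and 1 was higher and 8 lower without it, so that no direction could be read.

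At least 3 of 9 proliferation genes were found in 1 of 17 WT members and 2 of 57 HKO members, and all 3 of these barcodes were in the cDC1 gate. The WT barcode held 3 of the 9 genes. It was the deepest member (40283 UMIs) and stood at the hepatocyte share of free RNA (19.1% of its UMIs). Top2a, the mitotic topoisomerase, had 7 and 3 UMIs in the 2 HKO barcodes and 0 in the WT one, and 1 UMI in 1 further HKO barcode of the gate.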
